A study of Mus musculus with 4 samples.

Results

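The levels of canonical heat shock response genes were followed in the dermal white adipose tissue (dWAT) of aging mice, as a check of stress at handling. The 10 genes, out of 22913 in the files, were taken by name as chaperones that are either induced by stress or made at all times: Hspa1a, Hspa1b, Hspa8, Dnajb1, Bag3, Hsph1, Hsp90aa1, Hspb1, Hspd1 and Hspe1. The rule uses no measured value. dWAT is the layer of fat cells in the skin that surrounds the lower end of the hair follicles (HF), whose cycle passes from rest (telogen) to growth (anagen). The 4 groups were C57BL/6 dWAT of old mice in telogen (OTD), young mice in telogen (YTD), old mice in anagen (OAD) and young mice in anagen (YAD), with old mice of 18 months and young mice of 2 months by the treatment protocol and the study's methods. In the sample labels the age field of YTD reads 18 months and that of OAD 2 months, against their titles, and the titles were followed. Anagen was induced by depilation in both ages, so the anagen groups also carry that treatment.

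Each group was 1 library from the pooled tissue of 20 mice, so no spread between replicates is known and no difference below has a test. Age, pool and collection cannot be told apart within a phase, nor can fewer cells of a type and less RNA per cell. All 12 adipocyte markers were present, with Adipoq, which encodes the adipocyte hormone adiponectin, between 76.5 and 427 FPKM (fragments per kilobase of listed length, scaled to the fragments of the library). Other tissues were present too. Skeletal muscle markers made up 10.3% of the FPKM of YTD and 6.48% of OTD, and 2.07% of YAD and 2.28% of OAD, although the muscle layer was removed at dissection. Mitochondrial genes made up 44.7%, 52.7%, 14.4% and 18.3% in the same order, and hair shaft and matrix markers 0.0199%, 0.00930%, 2.25% and 1.98%. Depth, estimated roughly from the lowest values, was 19000000 to 24000000 fragments per library, so that the least covered of the 10 genes rested on about 260 fragments in YTD and on at least 650 in each other library.

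Heat shock proteins hold unfolded proteins and help them to fold. In resting cells heat shock factor 1 (HSF1) is kept inactive by chaperones, and unfolded protein draws those chaperones away, so that HSF1 forms trimers and binds heat shock elements, arrays of inverted GAA units, in front of its targets. Induced HSP70 and its J-domain partner are classical early products of this response, while cognate HSC70, the HSP90 proteins and the mitochondrial chaperonin are abundant without stress. Tissue that is cut, warmed or kept waiting before RNA extraction is known to switch on HSP70 genes together with immediate early genes such as Fos, which is why such genes serve as a handling check.

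Hspa1a (ENSMUSG00000091971, chr17:34969190-34972156, minus strand, GRCm38) and Hspa1b (ENSMUSG00000090877, chr17:34956436-34959238, minus strand) encode the stress-induced HSP70 itself and lie next to each other. The 150 bases before the RefSeq start of each (GRCm38.p6) are shown because both genes carry an element of inverted GAA units there, those of Hspb1 because it has more than 1 such element, and those of Dnajb1 because it has none. Capitals mark GAANNTTC, and sequences read 5′ to 3′ on the gene's strand.
Hspa1a, chr17:34972157-34972306, minus strand: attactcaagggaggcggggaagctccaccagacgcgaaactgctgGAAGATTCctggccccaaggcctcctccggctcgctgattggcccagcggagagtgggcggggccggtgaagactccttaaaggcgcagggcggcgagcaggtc
Hspa1b, chr17:34959239-34959388, minus strand: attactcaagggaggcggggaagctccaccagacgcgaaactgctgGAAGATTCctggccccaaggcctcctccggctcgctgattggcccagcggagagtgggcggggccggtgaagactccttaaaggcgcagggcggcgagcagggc
Hspb1, chr5:135887769-135887918, plus strand: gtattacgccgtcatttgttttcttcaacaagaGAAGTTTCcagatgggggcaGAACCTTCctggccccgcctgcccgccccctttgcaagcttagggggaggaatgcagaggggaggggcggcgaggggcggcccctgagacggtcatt
Dnajb1, chr8:83608025-83608174, plus strand: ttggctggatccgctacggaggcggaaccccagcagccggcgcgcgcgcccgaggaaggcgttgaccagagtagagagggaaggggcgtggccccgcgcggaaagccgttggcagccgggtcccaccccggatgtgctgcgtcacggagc

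In Hspa1a and Hspa1b the match lay at the same place, from -104 to -97 relative to the start, and 247 of the 250 bases before the start were identical (98.8%). Hspb1 had matches from -117 to -110 and from -97 to -90. Hspd1 and Hspe1 are neighbours that point away from each other, and the 18 bases from chr1:55088059-55088076, shown because they hold 4 alternating TTC and GAA units in the windows of both genes, read on the plus strand as follows.
Hspe1 and Hspd1: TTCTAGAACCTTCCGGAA

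This run lay inside the listed span of Hspd1. It ended 72 bases before the start of Hspe1 and stood between 127 and 144 bases before 1 of the 2 starts of Hspd1. Windows of 250 bases before to 50 bases after the start were given for 8 of the 10 genes and were not used here for Hsp90aa1 and Hspa8. GAANNTTC was found in 7 of these 8 genes and in 9.04% of all 27025 genes with a window. TTCNNGAA was found in 3 of the 8 and in 9.60% of all genes. Each motif is its own reverse complement, so a match stands on both strands. A longer array of 3 alternating units with 2 free bases between neighbours (TTC, GAA and TTC, or on the other strand GAA, TTC and GAA), which contains both shorter motifs, was found in Hspd1, Hspe1 and Hsph1, against 0.662% of all genes. Some matches lay after the start, that of Bag3 from 43 to 50 and the longer array of Hsph1 from 37 to 49 after 1 of its starts and from 16 to 28 after the other. A match is a description of these letters, and HSF1 binding was not measured.

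**Figure D1:**
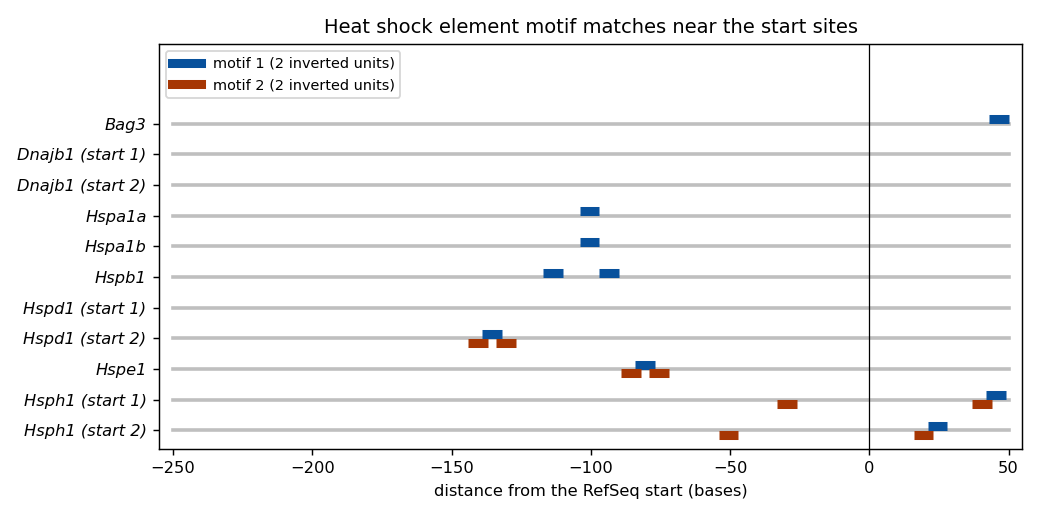
Position of heat shock element matches in windows from 250 bases before to 50 bases after each RefSeq start, in bases from the start, with 1 grey line for each start of the 8 genes. Blue bars (motif 1) are GAANNTTC and brown bars (motif 2) TTCNNGAA. The bars of Hspa1a and Hspa1b stand at the same place, and both starts of Dnajb1 and 1 start of Hspd1 have none.

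The stress-induced HSP70 genes both had their lowest level in young telogen dWAT. Hspa1a had 7.55 FPKM in YTD and 26.5 in OTD, and 26.3 in YAD and 26.7 in OAD. YTD stood below the other libraries, which lay within 1.01-fold of each other. Hspa1b had 8.40 FPKM in YTD and 28.6 in OTD, and 77.4 in YAD and 78.6 in OAD, so that YTD was again lowest but OTD lay between it and both anagen libraries. On the scale of log2(FPKM + 1), which is used for each difference below, old minus young telogen was 1.68 for Hspa1a and 1.65 for Hspa1b, and old minus young anagen was 0.02 for both. Among the 13143 genes with a mean of at least 1 FPKM over the 4 libraries, the telogen differences held places 43 and 47 from the highest.

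The coding sequences of both genes are 99.4% identical (1915 of 1926 aligned positions), and 82.4% of the 50-base stretches of Hspa1a also occur in Hspa1b. How reads that match both were counted is not given in the sources used here, so their split is uncertain and the sum is the safer value. The sum was 16.0 FPKM in YTD, 55.1 in OTD, 104 in YAD and 105 in OAD, that is, 3.45-fold higher in old than young telogen and 1.01-fold in anagen. Hspa1b was listed at 1.08 and 1.11 times Hspa1a in OTD and YTD and at 2.95 and 2.94 times in OAD and YAD. Gm20481, annotated on the other strand across 2225 bases of Hspa1a, was listed at 4.88 FPKM in YTD and 17.3 in OTD, and 24.2 in YAD and 20.4 in OAD. Whether strand was used in counting is not stated, and reads of these overlapping genes cannot be told apart.

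**Figure D2:**
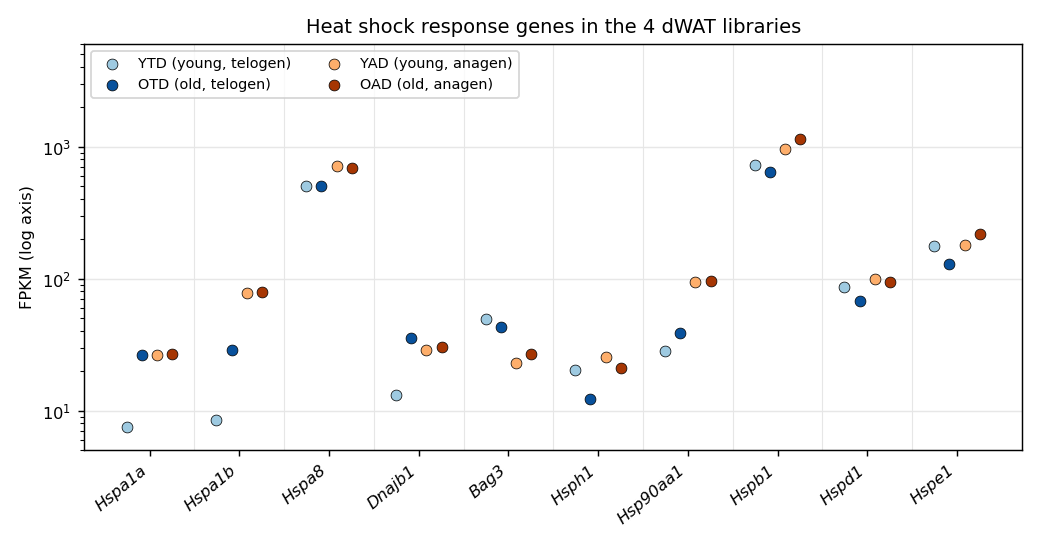
FPKM (log axis) of the 10 heat shock response genes, 1 point for each of the 4 libraries, without replicates. YTD lies below the other 3 libraries for Hspa1a, Hspa1b, Dnajb1 and Hsp90aa1, and is lowest for Hspa8 too but close to OTD. Hspa8 and Hspb1 are the highest of the 10 genes in all 4 libraries.

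The partners that set the HSP70 cycle did not move as a block. Dnajb1 (ENSMUSG00000005483, chr8:83608175-83611902), the J-domain protein that feeds clients to HSP70 and starts its ATPase, had 13.2 FPKM in YTD and 35.7 in OTD, and 28.8 in YAD and 30.1 in OAD. As for the HSP70 genes YTD was lowest, and the difference between ages was 1.37 in telogen (place 92 of 13143) and 0.06 in anagen. Bag3 (ENSMUSG00000030847, chr7:128523583-128546977), a nucleotide exchange factor that steers clients to autophagy and is rich in muscle, had 49.2 FPKM in YTD and 42.9 in OTD, and 22.7 in YAD and 26.7 in OAD. Both telogen libraries were above both anagen libraries, and the ages differed by -0.19 in telogen (0.02 with mitochondrial genes left out of the scaling) and 0.23 in anagen. Skeletal muscle markers were likewise lower in anagen, by a median difference of -3.04 in young and -1.99 in old dWAT, and their part in the level of Bag3 was not tested. Hsph1 (ENSMUSG00000029657, chr5:149614287-149636376), the HSP110 exchange factor that is itself a classical heat shock target, had 20.3 FPKM in YTD and 12.2 in OTD, and 25.3 in YAD and 21.1 in OAD. Here OTD, not YTD, was lowest, and old minus young telogen was -0.69, opposite in sign to the HSP70 genes under all 5 scalings used (-0.69 to -0.48).

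Hsp90aa1 and Hspb1 are the other cytosolic chaperones of the list. Hsp90aa1 (ENSMUSG00000021270, chr12:110690605-110702728), the stress-induced HSP90 of the cytosol, had 28.1 FPKM in YTD and 38.9 in OTD, and 94.9 in YAD and 96.7 in OAD. Both anagen libraries were above both telogen libraries, YTD was lowest, and old minus young was 0.46 in telogen and 0.03 in anagen. Its constitutive sister Hsp90ab1 was 18.2 times as high in YTD and 11.6 times in OTD, and 5.57 times in YAD and 6.25 times in OAD, on the FPKM scale. Hspb1 (ENSMUSG00000004951, chr5:135887919-135889563), the small heat shock protein HSP25 that keeps unfolding proteins soluble, had 732 FPKM in YTD and 642 in OTD, and 957 in YAD and 1134 in OAD. It differed between ages by -0.19 in telogen, a sign that turned under 1 scaling (to 0.03 with mitochondrial genes left out), and by 0.24 in anagen.

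The constitutive Hspa8 hardly differed between ages as deposited, and the mitochondrial pair was lowest in OTD. Hspa8 (ENSMUSG00000015656, chr9:40800984-40805200), the cognate HSC70 that cells make at all times, had 503 FPKM in YTD and 505 in OTD, and 717 in YAD and 688 in OAD. Old minus young was 0.00 in telogen and -0.06 in anagen. Over the 5 scalings it lay between 0.00 and 0.23 in telogen and between -0.29 and -0.04 in anagen. The constitutive Hspa8 was 31.5 times the sum of Hspa1a and Hspa1b in YTD, against 9.16 in OTD, 6.53 in OAD and 6.91 in YAD. Hspd1 (ENSMUSG00000025980, chr1:55077835-55088243), the mitochondrial chaperonin HSP60, had 86.2 FPKM in YTD and 67.7 in OTD, and 99.2 in YAD and 94.9 in OAD. Hspe1 (ENSMUSG00000073676, chr1:55088132-55091307), its lid HSP10, had 175 FPKM in YTD and 128 in OTD, and 179 in YAD and 217 in OAD. OTD was the lowest library for both, with old minus young telogen of -0.34 for Hspd1 and -0.45 for Hspe1, and in anagen -0.06 and 0.28. The annotated spans of this pair overlap by 112 bases on opposite strands.

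Across the list, 3 of 10 genes were higher by a size of at least 1 in OTD than in YTD (Hspa1a, Hspa1b and Dnajb1) and 0 were lower, where 1.86% of the 13143 genes were higher by that size and 2.33% lower. Hspa1a and Hspa1b, whose reads cannot be split safely, are not separate observations in this count, and their sum differed by 1.73. The 7 other genes lay between -0.69 and 0.46, with 5 of them lower. The median of the 10 was -0.09, beside a median of all genes of -0.07. In anagen 0 of 10 passed that size in either direction, where 0.791% of all genes were higher and 0.434% lower by it. The 10 anagen differences lay between -0.25 and 0.28, with a median of 0.02 beside 0.00 for all genes. For 4 of the genes (Hspa1a, Hspa1b, Dnajb1 and Hsp90aa1) the anagen sign turned under other scalings. The telogen differences of Hspa1a, Hspa1b and Dnajb1 were at least 1.35 under each of the 5 scalings. That telogen and anagen differ in their age difference was not tested.

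Markers of other cell types also differed between OTD and YTD. Macrophage markers were higher in OTD for 11 of 12 genes (median 0.44, summed FPKM 875 against 535) and lower in OAD than YAD for 12 of 12 (174 against 205). Endothelial markers were higher in the old library for 10 of 10 genes in both phases (621 against 395 in telogen, 157 against 118 in anagen). Adipocyte markers were higher for 7 of 12 in telogen and for 12 of 12 in anagen. These counts are as deposited, and the anagen values moved with the scaling. Under TPM the anagen median went from 0.30 to 0.10 for endothelial and from 0.31 to 0.08 for adipocyte markers. For macrophage markers it went from -0.21 to -0.43. Hair shaft and matrix markers were lower in OTD for 13 of 13 genes (116 against 248) and keratinocyte markers for 9 of 10 (85.8 against 134). The part of each cell type in the telogen differences was not tested.

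**Figure D3:**
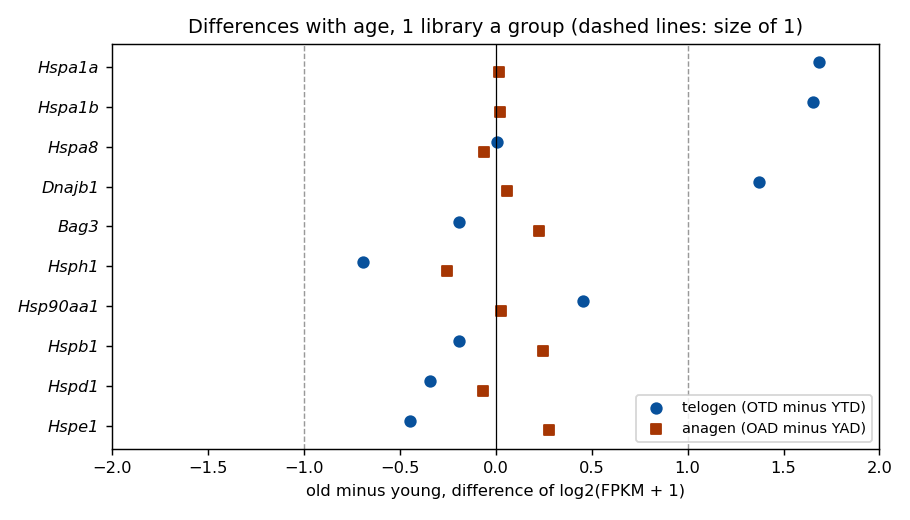
Old minus young difference of log2(FPKM + 1) for each of the 10 genes in telogen (circles) and anagen (squares), 1 library a group, with dashed lines at a size of 1. Hspa1a, Hspa1b and Dnajb1 lie past 1 in telogen and within 0.06 of 0 in anagen.

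Of the genes listed as factors and regulators of the response, Ier5 and Ier5l were also lowest in YTD. Dedd2 was lowest there too, but OTD lay close to YTD. Of the 7 listed with a mean of at least 1 FPKM, OTD was above YTD for 3 and below it for 4, and 0 passed a size of 1. That count became 1 under the median of ratios and 2 with mitochondrial genes left out of the scaling, all higher. Of all genes 2.05% and 3.32% were higher by that size under these 2 scalings. Hsf1, the master factor, had 23.7 FPKM in YTD and 17.4 in OTD, and 22.5 in YAD and 17.8 in OAD, lower in the old library of both phases (-0.43 and -0.32). Ier5, an HSF1 target and co-activator, had 11.9 FPKM in YTD and 23.9 in OTD, and 41.5 in YAD and 40.1 in OAD, with differences of 0.96 and -0.05. Ier5l had 4.43, 9.66, 7.54 and 7.86 FPKM in the same order, with differences of 0.97 and 0.05. Dedd2 had 7.70 FPKM in YTD, 8.35 in OTD, 49.5 in YAD and 58.3 in OAD, with differences of 0.10 and 0.23. Hsf4, a factor known from the lens, differed by -0.77 and 0.57.

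The remaining chaperone families did not follow the induced HSP70 genes. Of 77 other chaperone and regulator genes, OTD was above YTD for 22 and below it for 55, with a median of -0.22. Of all genes 42.7% were above and 57.1% below, with a median of -0.07. Relative to the median of all genes, 27 lay above and 50 below. Past a size of 1, 0 were higher and 2 lower (Hspb6 at -1.09 and Bag2 at -1.11), beside 1.86% and 2.33% of all genes. With mitochondrial genes left out of the scaling 3 were higher and 0 lower, beside 3.32% and 1.28% of all genes. In anagen 39 were higher and 38 lower, with 0 past a size of 1 and a median of 0.00. Under the TPM scaling that anagen split became 13 higher and 64 lower, while 38 lay above the median of all genes and 39 below.

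Within these families the other HSP70 and HSP110 genes (10 used) had a telogen median of -0.10, from Hspa1l at -0.69 to Hspa2 at 0.64, and an anagen median of -0.03. The HSP90 group (16 used) had medians of -0.21 and -0.01, with Stub1, a ubiquitin ligase bound to HSP70, at -0.59 and 0.24, and Fkbp5, a glucocorticoid-induced HSP90 partner, at -0.68 in anagen. The J-domain group (20 used) had medians of -0.17 and 0.03, with Dnaja1, the other cytosolic partner of HSP70 that stress induces, the highest in telogen at 0.51 (57.0 FPKM in OTD, 39.7 in YTD) and the lowest in anagen at -0.26. The BAG and exchange factors (9 used) had medians of -0.38 and -0.04, and the cytosolic chaperonin (8 used), which folds actin and tubulin, had -0.13 and -0.04 and a telogen range of only -0.28 to 0.14. Some of these family medians lay so near 0 that scaling turned their sign, namely those of the other HSP70, HSP90 and chaperonin genes in telogen and of the HSP90 and J-domain genes in anagen.

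Small heat shock protein genes other than Hspb1 (7 used) moved with the muscle markers. In telogen 6 of 7 were lower in OTD, with a median of -0.64, as were 21 of 21 muscle markers with a median of -0.71. Hspb6 had 1463 FPKM in YTD and 685 in OTD, and 116 in YAD and 169 in OAD, and Cryab, the alpha B crystallin abundant in muscle, had 1033, 555, 104 and 161 FPKM. Ckm, the creatine kinase of muscle, had 12413, 7920, 1400 and 1988 FPKM, in the same order of libraries. In anagen OAD was above YAD for 4 of the 7 (median 0.11) and for 15 of 21 muscle markers. Under TPM these counts became 3 of 7, with a median of -0.12, and 11 of 21. Hspb11 alone was higher in OTD, at 0.89. The part of muscle RNA in these values was not tested.

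**Figure D4:**
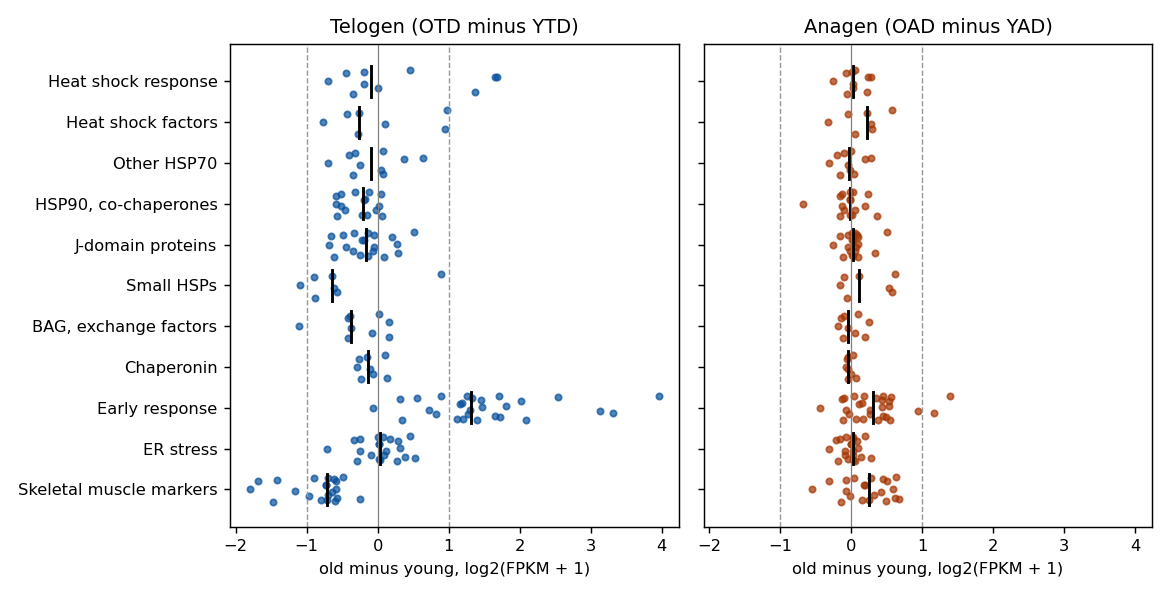
Old minus young difference of log2(FPKM + 1) for each gene of the 10 heat shock response genes, the other chaperone families, 2 further stress lists and the skeletal muscle markers, in telogen (left) and anagen (right). Some endoplasmic reticulum stress genes are also shown in a chaperone family. Each point is a gene with a mean of at least 1 FPKM, black bars are medians and dashed lines a size of 1; the early response list in telogen has its median at 1.32 and muscle markers theirs at -0.71.

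Immediate early genes, the other common sign of stress at handling, stood beside the HSP70 genes in telogen. Of 28 early response genes 27 were higher in OTD than in YTD, 21 of them by at least 1, with a median of 1.32. Of all genes 42.7% were higher, and 1.86% by at least 1. Fos, a subunit of AP-1, had 12.3 FPKM in YTD and 131 in OTD, and 7.68 in YAD and 18.5 in OAD, and Egr1, a zinc finger factor induced within minutes, had 7.25, 71.0, 36.7 and 50.6 FPKM. For Fos OTD was high above all other libraries, while for Egr1 YTD was low below all others, as for Hspa1a. Fosb (3.96), Fos (3.31) and Egr1 (3.13) had the highest telogen differences and Gadd45g (-0.06) the lowest. In anagen 22 of the 28 were higher in OAD, 2 of them by at least 1 (Fos at 1.17 and Atf3 at 1.40), with a median of 0.31. Under the TPM scaling that split became 17 higher and 11 lower, with a median of 0.10, while 22 lay above the median of all genes. How far age, inflammation or the time and way of collection account for these values was not tested.

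Genes of the endoplasmic reticulum stress response, which unfolded protein in the secretory pathway switches on, did not share that difference. This list is not separate from the chaperone families, since Hspa5, Hsp90b1, Hyou1, Dnajb9, Dnajb11 and Dnajc3 stand in both. Of 21, 15 were higher and 6 lower in OTD, 0 passed a size of 1, and the median was 0.03. In anagen 12 were higher and 9 lower, again with 0 past it and a median of 0.02, a split that turned to 2 higher and 19 lower under the TPM scaling. Hspa5, the luminal HSP70 known as BiP, had 67.5 FPKM in YTD and 71.4 in OTD, and 205 in YAD and 236 in OAD. Ddit3, the stress factor CHOP, was lowest in telogen at -0.71.

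Between phases the same libraries were set against each other, so these differences share OTD, YTD, OAD and YAD with those of age. In young dWAT 4 of 10 genes were higher in YAD than in YTD by at least 1 and 1 lower, where 20.2% of all genes were higher and 21.5% lower by that size. Those higher were Hspa1b (3.06), Hsp90aa1 (1.72), Hspa1a (1.68) and Dnajb1 (1.07), and Bag3 was lower (-1.08). Bag3 was no longer past that size under TPM (-0.26) or without mitochondrial genes (-0.87). In old dWAT 2 of 10 were higher in OAD than in OTD, Hspa1b (1.43) and Hsp90aa1 (1.29), and 0 lower, where 20.5% of all genes were higher and 19.9% lower. Since the split between Hspa1a and Hspa1b is uncertain, their sum is the safer value here too. It differed by 2.63 in young dWAT and by 0.92, under that size, in old. Hsp90aa1 came to 0.95 with mitochondrial and muscle genes left out of the scaling. Hspa1a (0.01) and Dnajb1 (-0.24) differed little in old dWAT and turned sign under other scalings. Hspb1, Hspd1, Hspe1, Hspa8 and Hsph1 were between 0.03 and 0.51 higher in YAD than YTD, the sign of Hspe1 turning under 1 scaling, and between 0.45 and 0.82 higher in OAD than OTD.

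The phase differences also moved with the scaling. Rescaling to TPM moved the median of all genes from 0.03 to 0.75 in young and from 0.06 to 0.59 in old dWAT, and leaving out mitochondrial genes moved it to 0.21 and -0.09. Under TPM 8 of the 10 genes were higher by at least 1 in young and 7 in old, where 42.0% and 35.5% of all genes were. The median of the 10 less that of all genes was steadier, from 0.41 to 0.54 in young and from 0.51 to 0.62 in old over the 5 scalings. Beside these differences, hair shaft and matrix markers were higher in anagen by a median of 6.48 in young and 7.82 in old, and adipocyte markers differed by -1.63 and -1.40, so the cell types of the libraries differed. The part of cell type in the phase differences was not tested.

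**Figure D5:**
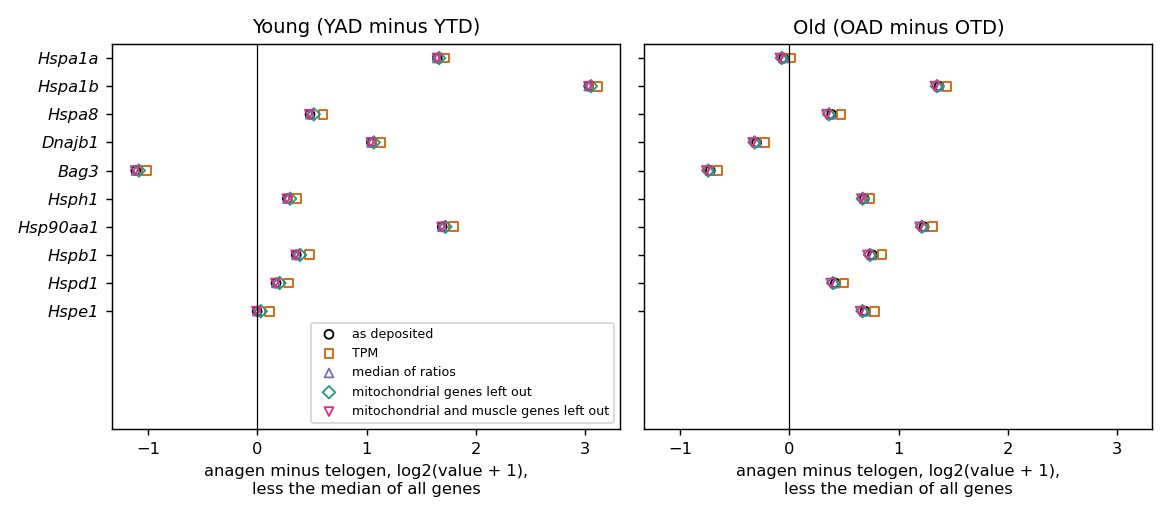
Anagen minus telogen difference of log2(value + 1) for each of the 10 genes, less the median of all genes, in young (left) and old (right) dWAT, with 1 symbol for each of 5 scalings. Hspa1b lies farthest to the right in both ages and Bag3 farthest to the left, and the symbols of a gene lie close together once the median is taken off.

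The profile of the HSP70 pair over the libraries (the mean of Hspa1a and Hspa1b) was also sought among the 9298 genes with a mean of at least 5 FPKM. Likeness was the Euclidean distance of centred log2(FPKM + 1) values over 4 libraries. The 5 nearest outside the list were Fosl2 (0.22), an AP-1 subunit, Fam107b (0.33), the immediate early gene Ier2 (0.34), the growth factor target Myc (0.48) and Slc16a13 (0.49). Fosl2 had 8.28 FPKM in YTD and 23.5 in OTD, and 44.3 in YAD and 46.7 in OAD, and Ier2 had 16.0, 54.9, 76.5 and 85.6 FPKM. The early response list as a whole did not follow this profile between phases. Of its 28 genes 16 were higher in YAD than in YTD (median 0.33). In old dWAT 10 were higher and 18 lower in OAD than in OTD, with a median of -0.53. Under TPM that median became 0.08, beside 0.59 for all genes. The mean profile was nearer to Hspa1b (0.51) than to Hspa1a (0.89), so these neighbours are less alike to Hspa1a. Of the other listed genes Hsp90aa1 lay nearest, at 0.89, Dnajb1 at 1.33 and Bag3 farthest, at 2.92. With 4 points a profile has little detail.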

How the data were processed

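RNA sequencing measured dWAT of 4 groups, with 1 library each (RNA integrity over 7.5, Illumina HiSeq 2500). The submitters' processing notes name bcl2fastq, TopHat2 and GRCm38, and the counting tool and annotation are not given in the sources used here. The authors deposited FPKM for 22913 genes, over lengths of which 97.0% are multiples of 3 (coding length), with no stated scaling between libraries. 21750 identifiers matched a symbol.

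Differences are of log2(FPKM + 1). Background and lists kept the 13143 genes with a mean of at least 1 FPKM. With 1 library per group there is no test, and a size of 1 or more was only counted. Depth was read from the lowest values of features of 2000 to 4000 bases and is rough. The steps were tested on simulated data (Python 3.11.15, numpy 2.4.6, pandas 2.3.3). Coding sequences were aligned globally (biopython 1.88), and promoter windows are from RefSeq GRCm38.p6.

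The 10 genes and all lists were chosen with earlier results of these data known. Named were the 10 genes; of each other list the 2 highest and 2 lowest in telogen and in anagen and those past a size of 1, of which part is given; and the 5 profiles nearest to the HSP70 pair. Hsp90ab1, Dedd2, Ckm, Adipoq and Gm20481 were named after their values were seen. Alternatives were a pseudocount of 0.1, TPM, the median of ratios, scaling without mitochondrial genes or without these and muscle markers, no filter, and a size of 1.5-fold.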

Additional observations from a re-analysis of the deposited data

Results flagged for a closer look

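Among the 10 heat shock response genes and the 77 other chaperone genes, 11 moved in opposite directions with age in telogen and anagen by at least 0.25 in each phase and by more than the rough counting error, and kept both signs under all 5 scalings. As deposited that is 12.6% of these genes, where 4.62% of the 13143 genes met the same limits (signs under other scalings aside), and 9 to 11 of these 87 met it under the 5 scalings, against 4.62% to 6.79% of all genes. The difference between the phases was not tested, since each group is 1 library. Values are the telogen difference (old minus young, log2(FPKM + 1)) less the anagen difference. Hspe1, the mitochondrial HSP10, was the only one of the 10 as deposited, and its anagen value fell under 0.25 in 3 of the scalings (0.045 under TPM). It stood at -0.72. The small heat shock proteins Hspb6, Cryab and Hspb7 stood at -1.63, -1.52 and -1.46, the exchange factor Bag2 at -1.37 and the factor Hsf4 at -1.34. The J-domain gene Dnajb5 stood at -0.99, Hspa1l at -0.97, the myosin chaperone Unc45b at -0.93 and the HSF1 binding protein Hsbp1 at -0.55. Dnaja1 alone was positive, at 0.77. As deposited, skeletal muscle markers moved the same way as the 10 negative genes, with a median of -0.71 in telogen and 0.25 in anagen. That anagen median fell to 0.02 under TPM, with 11 of 21 markers higher, and to 0.09 without mitochondrial genes. The part of muscle RNA was not tested.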

How the results depend on the processing

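Leaving out a library was not possible with 1 per group. No paired analysis was possible because each group is 1 library and the labels give no shared replicate numbers. Hspa1a, Hspa1b and Dnajb1 stayed past the size in telogen under all 7 alternatives, and 0 of the 10 genes passed it in anagen under any. The median of the 10 in telogen (-0.09) became 0.13 without mitochondrial genes and 0.043 without these and muscle genes, and in anagen (0.02) became -0.14 and -0.13 under those and -0.21 under TPM. Between phases the young median (0.45) became 1.29 under TPM and 0.66 without mitochondrial genes, and the old median (0.61) became 1.21, 0.45 and, without muscle genes too, 0.28. The number past the size became 8 (young) and 7 (old) under TPM, all higher. Of all genes 42.0% and 35.5% were higher by it under TPM. In old it became 1 (higher) without mitochondrial and muscle genes, where 15.5% of all genes were higher and 26.4% lower. At a size of 1.5-fold it became 6 in old, where 31.7% of all genes were higher and 29.6% lower. Bag3 was lower among the 6 (-0.66). Other chaperone genes past the size in either direction numbered 4 in telogen with a pseudocount of 0.1. Of all genes 3.55% were higher and 4.79% lower there. At 1.5-fold they numbered 16 in telogen and 2 in anagen. Of all genes 7.33% were higher and 11.1% lower by 1.5-fold in telogen, and 3.25% and 1.93% in anagen. Endoplasmic reticulum stress genes numbered 1 in telogen at 1.5-fold, and early response genes in anagen 4 with a pseudocount of 0.1 and 1 under TPM. In anagen 1.67% of all genes were higher and 1.16% lower with that pseudocount, and 0.563% and 0.974% under TPM. The cause was not tested. Every statement rests on 1 library a group, and about 260 fragments were the fewest behind any of the 10 genes.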
